A study of Mus musculus with 2 samples.

Results

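The proteasome is the protease that degrades proteins tagged with ubiquitin, and its genes were compared between cells labelled as small intestinal stem cells of circBtnl1 wild-type mice (1 library) and of circBtnl1 knockout mice (1 library). The name circBtnl1 refers to a circular RNA of the butyrophilin-like gene Btnl1. The genotype is the one labelled difference between the groups, and strain, age, sex, the way the knockout was made and the way the cells were isolated were not given in the sources used here. Members were taken by symbol, as every Psma to Psmg gene followed by a number apart from the immunoproteasome genes Psmb8, Psmb9 and Psmb10, which gave 46 of the 18067 genes with values. With 1 library in each group, every value below compares 2 libraries, the spread between mice is not known, and no test was made.

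In the proteasome, a barrel of alpha and beta rings, called the 20S core particle, holds the proteolytic sites inside. The 19S regulatory particle sits on its ends, where it binds ubiquitin, removes the ubiquitin chain and unfolds the protein with a ring of ATPases. Activators of the Psme family can take the place of the regulatory particle, and interferon replaces the 3 catalytic beta subunits with the immunoproteasome forms and raises the PA28 activator. The intestinal epithelium renews itself continuously from crypt stem cells, which depends on regulated turnover of proteins such as beta-catenin and the cyclins by this protease.

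Values were TPM, the length-corrected share of each gene among all transcripts of a library, so that levels of different genes can be compared. The host gene Btnl1 measured 59.3 and 65.4 TPM in wild-type and knockout cells, but a value per gene does not read the circular RNA and is no check of the genotype. The depth estimated from the lowest values was 20250000 fragments in wild-type and 16500000 in knockout cells. Genes that averaged 1 TPM or more counted as measured, which held for 12666 genes and for 45 of the 46 members. The log2 ratio of knockout over wild-type had a median of 0.39 over all measured genes, whereas genes of at least 50 TPM, where most proteasome genes lie, had a median of 0.04. The 9 intestinal stem cell markers summed to 198 TPM in wild-type and 240 TPM in knockout cells. Of these, 5 of the 8 measured were higher in knockout cells, where 70.2% of all measured genes were. Most of the sum was Prom1, at 120 against 150 TPM, with Sox9 at 21.3 against 39.2 TPM and Axin2 at 16.9 against 19.3 TPM. Prom1 and Sox9 are also expressed outside stem cells. The markers most closely tied to the stem cell were low, Lgr5 at 3.13 against 1.55 TPM and Olfm4 at 0.2 TPM against a listed 0. Smoc2 was lower, at 15.5 against 7.72 TPM. The goblet cell gene Zg16 stood at 8315 against 3413 TPM, so the stem cell label was borne out only in part. The enterocyte markers Sis and Lct and the Paneth cell marker Lyz1 were under 1 TPM in both libraries, while Fabp2 and Ang4 were well above it. The small intestinal part of the label was not tested.

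The constitutive proteasome was almost equal in the 2 libraries, and the genes that differed most were the PA28 activator genes Psme1 and Psme2 and a few other members. Psme1 was 2.42-fold lower in knockout cells, and Psmc6, Psmd14, Psmg2 and Psmc3ip were between 2.01-fold and 2.46-fold higher. The summed level of all members was 6439 TPM in wild-type and 6238 TPM in knockout cells, 0.644% and 0.624% of all transcripts. Of 45 measured members 26 were higher in knockout cells at all, where 70.2% of all measured genes were. The 2-fold threshold was passed upward by 4 of them, against 23.1% of all measured genes, and downward by 1, against 5.25%. The median log2 ratio of the members was 0.13, below that of all measured genes. Among genes of at least 50 TPM, 32 of 35 members were within 2-fold, where 83.8% of genes were, and 27 of 35 were within 1.5-fold, where 61.7% were. At this level 2 members passed 2-fold upward (9.33% of genes) and 1 downward (6.89%). The members' own median there was 0.04, the same as that of all genes at this level.

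**Figure D1:**
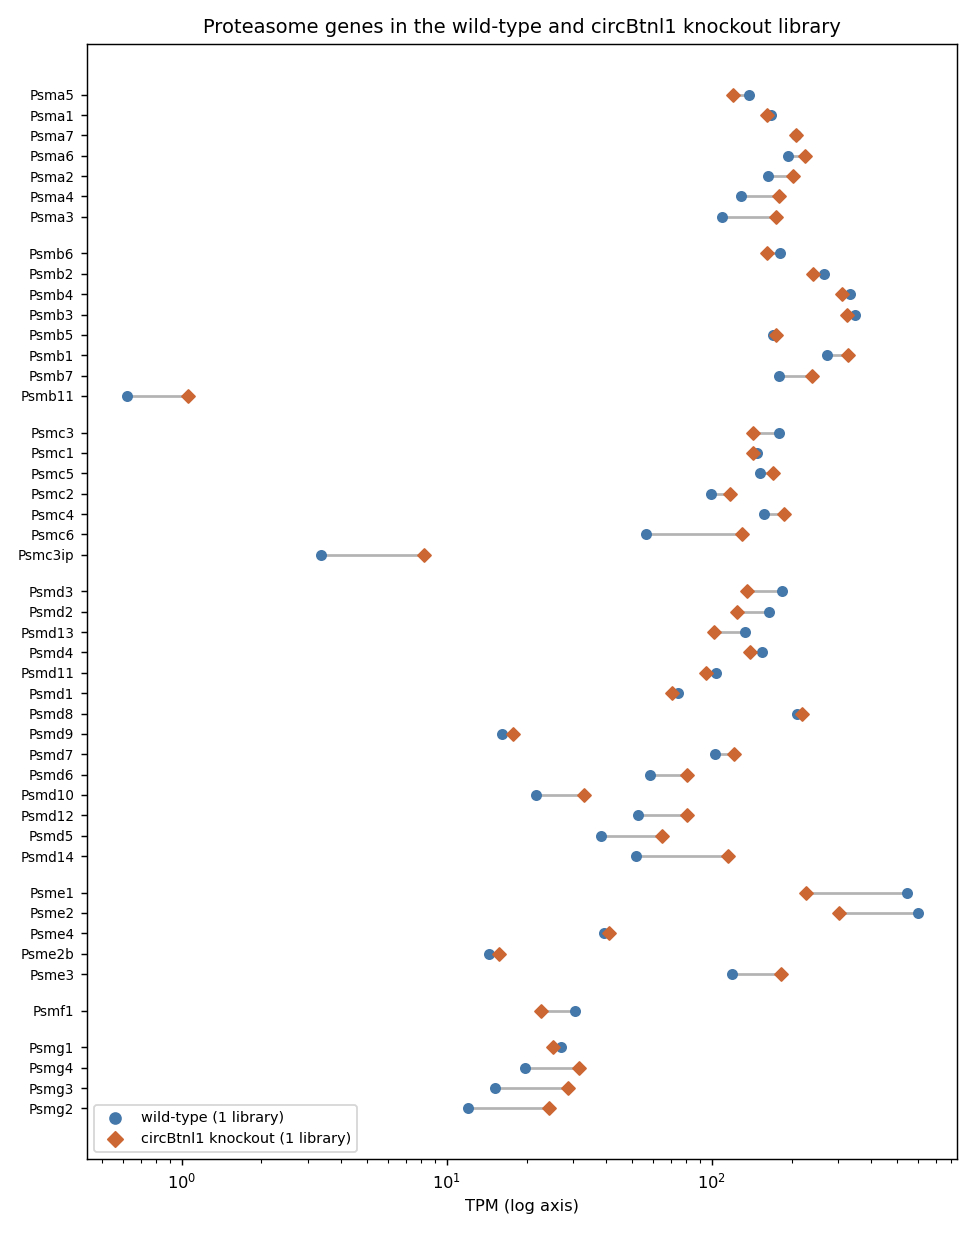
Level of each of the 46 members in TPM (log axis) in the wild-type (circles) and the circBtnl1 knockout library (diamonds), grouped by class from Psma at the top to Psmg at the bottom, each point being 1 library. Most pairs of points lie close together, and the longest gaps toward lower knockout values belong to Psme1 (547 against 226 TPM) and Psme2 (599 against 302 TPM).

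Promoter windows of 4 genes are shown because they stand for the patterns described below: Psme1 and Psme2 for the activator that was lower, Psmc6 for the subunit with the highest ratio, and Psmb5 for a catalytic subunit that was nearly equal. They are RefSeq windows of GRCm38.p6, the assembly that mm10 denotes, running from 250 bases before the annotated start to 50 bases after it and written in the direction of transcription. Capitals mark matches on either strand to TGACNNNGC (core of the antioxidant response element, which the transcription factors Nfe2l1 and Nfe2l2 bind), CCAAT (the NF-Y box) or a pair of GAAA half-sites with 2 bases between them (the interferon-stimulated response element). The windows are chr14:55578244-55578543 on the plus strand for Psme1, chr14:55591052-55591351 on the minus strand for Psme2, chr14:45329574-45329873 on the plus strand for Psmc6 and chr14:54617946-54618245 on the minus strand for Psmb5. For Psme2, the first of 2 listed windows is shown.
Psme1: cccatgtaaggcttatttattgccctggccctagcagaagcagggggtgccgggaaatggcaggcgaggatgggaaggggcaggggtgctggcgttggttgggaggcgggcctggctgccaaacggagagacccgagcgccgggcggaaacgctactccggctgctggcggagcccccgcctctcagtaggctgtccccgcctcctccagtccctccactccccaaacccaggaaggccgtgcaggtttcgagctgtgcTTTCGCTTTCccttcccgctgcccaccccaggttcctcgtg
Psme2: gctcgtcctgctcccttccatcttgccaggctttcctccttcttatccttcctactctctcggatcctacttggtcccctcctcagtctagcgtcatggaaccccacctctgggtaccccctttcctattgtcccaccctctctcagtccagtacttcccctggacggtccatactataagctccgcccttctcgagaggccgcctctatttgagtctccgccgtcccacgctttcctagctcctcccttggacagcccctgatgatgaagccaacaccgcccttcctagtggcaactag
Psmc6: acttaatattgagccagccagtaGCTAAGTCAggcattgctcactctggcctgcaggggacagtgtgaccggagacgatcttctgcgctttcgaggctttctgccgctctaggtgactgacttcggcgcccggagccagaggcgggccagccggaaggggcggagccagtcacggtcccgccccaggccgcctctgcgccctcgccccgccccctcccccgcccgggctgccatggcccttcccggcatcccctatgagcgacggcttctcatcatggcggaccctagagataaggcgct
Psmb5: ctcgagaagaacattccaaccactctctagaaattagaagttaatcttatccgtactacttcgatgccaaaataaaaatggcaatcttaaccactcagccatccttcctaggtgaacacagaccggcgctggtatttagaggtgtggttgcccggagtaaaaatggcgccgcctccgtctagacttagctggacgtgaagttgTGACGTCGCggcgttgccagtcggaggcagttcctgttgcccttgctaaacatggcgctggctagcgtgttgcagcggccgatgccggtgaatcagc

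The Psme1 window held the GAAA pair on its minus strand from position 10 after the start, and the Psme2 window held none of the 3 motifs. Psmc6 held TGACNNNGC on its minus strand from position -227, and Psmb5 held it on its plus strand from position -47. Windows were listed for 39 members. TGACNNNGC was found in 6 of the 39 (15.4%), against 16.7% of 10133 measured genes with a window. CCAAT was found in 14 (35.9%), against 43.2% of these genes. The GAAA pair was found in 5 (12.8%), namely Psmb3, Psmd4, Psmd9, Psme1 and Psmg4, against 3.73% of these genes. Apart from Psme1 these genes were not lower by 2-fold: Psmb3, Psmd4 and Psmd9 had log2 ratios of -0.09, -0.15 and 0.14, and Psmg4 one of 0.68. A match describes the letters of a window and does not show that a factor binds there.

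The alpha ring, formed by Psma1 to Psma7, gates the entrance of the barrel. Its 7 genes lay between 109 and 208 TPM in wild-type and between 120 and 225 TPM in knockout cells. All 7 were within 2-fold, where 71.7% of all measured genes and 83.8% of genes of at least 50 TPM were. Of the 7, 4 were higher, where 70.2% of all measured genes were, and 3 lower. The median log2 ratio was 0.22. Psma3 had the highest ratio, at 109 TPM in wild-type and 174 TPM in knockout cells (log2 ratio 0.67). Psma5 had the lowest, at 138 against 120 TPM (log2 ratio -0.21). Psma6 was the most abundant over both libraries, at 194 against 225 TPM, and Psma7 was equal, at 208 TPM in both.

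The beta ring carries the proteolytic sites on Psmb5, Psmb6 and Psmb7, and Psmb1 to Psmb4 complete it. All 7 measured Psmb genes were within 1.5-fold, where 49.3% of all measured genes and 61.7% of genes of at least 50 TPM were. The median log2 ratio was -0.09. Psmb5, the subunit with chymotrypsin-like activity and the target of the drug bortezomib, stood at 170 TPM in wild-type and 174 TPM in knockout cells. Psmb6, with caspase-like activity, stood at 181 against 161 TPM and had the lowest ratio (-0.17). Psmb7, with trypsin-like activity, stood at 179 against 239 TPM and had the highest ratio (0.41). In the wild-type library these 3 levels differed by no more than 1.07-fold from each other, and in knockout cells by up to 1.48-fold. The noncatalytic Psmb3 was the most abundant member of the ring in wild-type cells, at 346 against 324 TPM, and Psmb1 in knockout cells, at 272 against 326 TPM. Psmb11, the catalytic subunit of the thymus proteasome, was the only member under the floor, at 0.62 against 1.06 TPM, which corresponds to about 25.5 and 37.1 fragments.

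The catalytic genes left out by the rule show a different picture from Psmb5, Psmb6 and Psmb7. Psmb8 stood at 476 against 57.4 TPM, Psmb9 at 325 against 56.8 TPM and Psmb10 at 416 against 143 TPM. These 3 immunoproteasome genes summed to 2.29 times the level of Psmb5, Psmb6 and Psmb7 in wild-type and to 0.449 times in knockout cells, while the sum of the 3 constitutive genes went from 531 to 574 TPM. Psmb8 was 2.80 times Psmb5 in wild-type and 0.329 times Psmb5 in knockout cells, so the order within this pair was opposite in the 2 libraries, as it was for Psmb9 against Psmb6 (1.79 and 0.353) and Psmb10 against Psmb7 (2.32 and 0.600).

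The Psme genes encode activators that open the barrel without ubiquitin or ATP. Psme1 and Psme2 encode PA28 alpha and PA28 beta, which form 1 ring and are induced by interferon gamma. Psme1 (Entrez gene 19186, chromosome 14, 55578494 to 55581527) stood at 547 TPM in wild-type and 226 TPM in knockout cells, a log2 ratio of -1.28. Psme2 (Entrez gene 19188, chromosome 14, 55587440 to 55591101) stood at 599 against 302 TPM, a log2 ratio of -0.99, just short of the 2-fold threshold, which it passed without the 10 most abundant genes (-1.04). Both were the most abundant members of all in wild-type cells. Their sum was 0.401 times the summed level of the 14 core particle genes in wild-type and 0.173 times in knockout cells. The 2 genes lie close to each other on opposite strands, and their ratios were similar in size.

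Psme3 encodes PA28 gamma, a nuclear activator, and it went the other way, at 119 against 182 TPM (1.53-fold higher, log2 ratio 0.61). Psme1 was thus 4.59 times Psme3 in wild-type and 1.24 times Psme3 in knockout cells. Psme4, which encodes the activator PA200, stood at 39.1 against 40.8 TPM. Psme2b, a gene similar in sequence to Psme2, stood at 14.5 against 15.8 TPM, and the division of reads between the 2 is uncertain. Psmf1, which encodes the proteasome inhibitor PI31, stood at 30.5 against 22.8 TPM (log2 ratio -0.42).

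**Figure D2:**
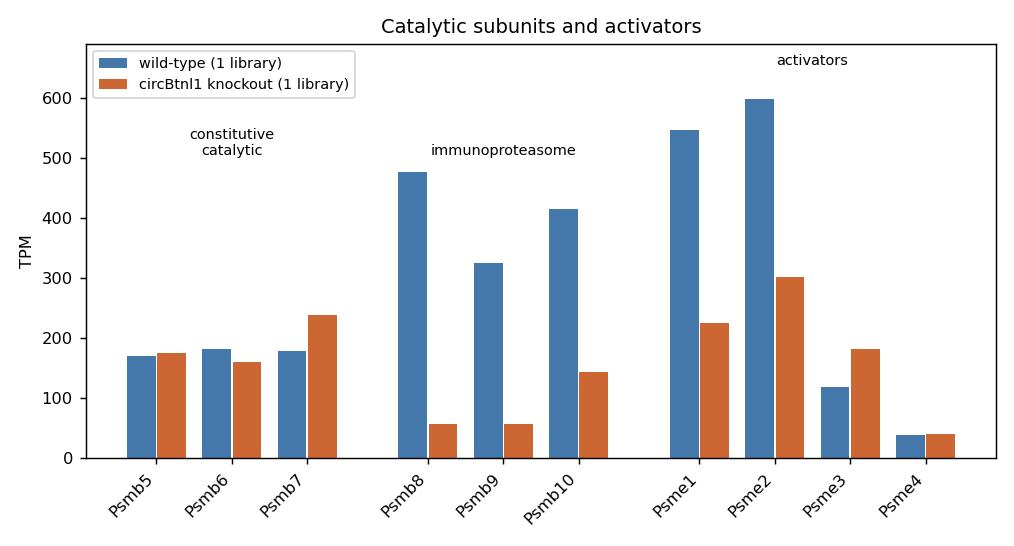
TPM of the constitutive catalytic genes, the immunoproteasome genes and the activator genes, as bars from 0, with 1 library per bar (left bar wild-type, right bar circBtnl1 knockout). Psmb8, Psmb9, Psmb10, Psme1 and Psme2 are lower in knockout cells, while Psmb5, Psmb6, Psmb7 and Psme4 are within 1.5-fold.

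Other genes of the interferon and antigen presentation program were lower beside Psme1 and Psme2. Of 6 genes of the MHC class I pathway (Tap1, Tap2, Tapbp, Nlrc5, B2m and Erap1), 5 were at least 2-fold lower, where 5.25% of all measured genes were. Tap1, a subunit of the peptide transporter, had the lowest ratio at 241 against 44.3 TPM. The trimming peptidase gene Erap1 was closest to equal at 39.8 against 32.3 TPM. Of 17 interferon response genes 8 passed the 2-fold threshold downward, against the same 5.25%, and none (0) upward, against 23.1%, with a median log2 ratio of -0.84. Irf1, a transcription factor of the interferon pathway, stood at 334 against 129 TPM and the GTPase gene Gbp2 at 140 against 5.4 TPM, whereas Ifit3 was higher at 13.7 against 24.7 TPM.

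Markers of other cells also moved with these genes, and in bulk RNA fewer cells of a type and less RNA per cell cannot be told apart. All 7 T and NK cell markers were lower, where 3773 of the 12666 measured genes were, with none (0) listed at 0. Their summed level went from 81.2 to 43.4 TPM. Of 7 measured myeloid markers 6 were lower, against the same 3773 of 12666 genes. The sum over all 8 listed went from 40.8 to 16.2 TPM, and S100a9 was listed at 0 in knockout cells. The 4 erythroid markers, all hemoglobin genes, summed to 276 against 11.3 TPM, each lower, against the same share, and none (0) listed at 0. The B and plasma cell markers summed to 2.30 against 1.01 TPM, with none (0) of 4 measured, and the 6 fibroblast and muscle markers to 33.8 against 121 TPM. These 6 were split: 3 were at least 2-fold higher, against 23.1% of all measured genes, led by Col1a2 at 3.76 against 64.4 TPM. The 2 at least 2-fold lower, against 5.25%, were Acta2 at 4.06 against 0.81 TPM and Des at 1.77 against 0.52 TPM. Among epithelial markers, goblet cell genes summed to 20285 against 10993 TPM. Of these 5 genes 3 were at least 2-fold lower, against 5.25% of all measured genes. Muc2 stood at 2663 against 1534.5 TPM, and Clca1 was nearly equal at 4098 against 4130 TPM. Paneth cell genes, almost all of it Ang4, summed to 594 against 2681 TPM. The other Paneth cell genes were low, Mmp7 at 9.29 against 1.1 TPM, Defa24 at 1.1 TPM against a listed 0 and Lyz1 at 0.87 against 0.31 TPM. Enterocyte genes summed to 2245 against 1711 TPM, in which Krt20 was lower, at 2065 against 919 TPM, and Fabp2 higher, at 135 against 757 TPM. Alpi stood at 42.6 against 33.7 TPM and Fabp1 at 2.08 against 0.5 TPM. Sis stood at 0.05 against 0.29 TPM and Lct at a listed 0 against 0.04 TPM. The part of these cells in the lower Psme1 and Psme2 was not tested.

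The 6 ATPases of the regulatory particle, Psmc1 to Psmc6, form the ring that unfolds substrates. Psmc6 went from 56.3 TPM in wild-type cells to 130 TPM in knockout cells, 2.30-fold higher (log2 ratio 1.20). The other 5 were within 1.5-fold, where 49.3% of all measured genes and 61.7% of genes of at least 50 TPM were. These 5 ran from Psmc3, at 180 against 143 TPM (log2 ratio -0.33), to Psmc4, at 157 against 187 TPM (log2 ratio 0.25). Psmc6 was the lowest ATPase in wild-type cells by a wide margin, and in knockout cells it lay inside the range of the other 5. The highest of the 6 was accordingly 3.19 times the lowest in wild-type and 1.60 times in knockout cells. The standard deviation of log2 TPM over all measured genes was also lower in knockout cells, 2.17 against 2.55 in wild-type cells. Psmc3ip matched the symbol rule but encodes a protein of meiotic recombination that binds Psmc3 and is no proteasome subunit. It stood at 3.35 against 8.23 TPM (2.46-fold higher), from about 40.7 and 88.4 fragments.

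The lid of the regulatory particle holds the enzyme that removes ubiquitin chains. That enzyme, the metalloprotease encoded by Psmd14, stood at 51.9 against 115 TPM, 2.22-fold higher (log2 ratio 1.15). Its inactive partner in the lid, encoded by Psmd7, stood at 103 against 121 TPM, so Psmd7 was 1.98 times Psmd14 in wild-type and 1.05 times in knockout cells. The scaffold subunit gene Psmd12 stood at 52.5 against 80.5 TPM and Psmd6 at 58.3 against 80.3 TPM. Psmd3 had the lowest ratio of the lid, at 185 against 136 TPM (log2 ratio -0.44), and Psmd13 stood at 133 against 102 TPM. Psmd8 was the most abundant lid gene among the members, at 210 against 219 TPM, and Psmd11 stood at 103 against 94.8 TPM. Sem1, a subunit gene that the symbol rule does not take, stood at 209 against 277 TPM. The 3 lid genes lowest in wild-type cells, Psmd14, Psmd12 and Psmd6, were also the 3 with the highest ratios. The wild-type level is the denominator of the ratio, so the 2 are not independent. The standard deviation of log2 TPM over the 8 Psmd genes of the lid was 0.80 in wild-type and 0.47 in knockout cells. Over all measured genes it was 2.55 and 2.17, also smaller in knockout cells.

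In the base, the 3 non-ATPase subunit genes that the symbol rule takes were lower, where 3773 of the 12666 measured genes were. All 3 were within 1.5-fold, where 49.3% of all measured genes and 61.7% of genes of at least 50 TPM were. Psmd2, a docking site for ubiquitin-like proteins, stood at 165 against 124 TPM. Psmd4, a ubiquitin receptor, stood at 155 against 140 TPM, and Psmd1, a large scaffold subunit, at 74.4 against 70.7 TPM. The chaperones that help to assemble the base, and leave it afterwards, were higher, where 70.2% of all measured genes were. Psmd5 stood at 38.2 against 64.9 TPM (1.70-fold), Psmd10 (gankyrin) at 21.7 against 33.0 TPM (1.52-fold) and Psmd9 at 16.1 against 17.8 TPM. Of the 17 regulatory particle genes that the symbol rule takes, 15 were within 2-fold. The share was 71.7% of all measured genes and 83.8% of genes of at least 50 TPM, the level of these 17. Their sum was 2083 against 2172 TPM, without the subunit genes Adrm1 and Sem1, which the rule does not take. The sum was 0.730 times that of the core particle in wild-type and 0.714 times in knockout cells.

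The Psmg genes encode chaperones that pair up and assemble the alpha ring. Psmg1 and its partner Psmg2 stood at 27.1 against 25.1 TPM and at 12.1 against 24.2 TPM. Psmg3 and its partner Psmg4 stood at 15.2 against 28.7 TPM (1.88-fold higher) and at 19.7 against 31.6 TPM (1.61-fold higher). Psmg2 was 2.01-fold higher, the member just past the 2-fold threshold, and Psmg3 was the nearest below it on the high side. With a pseudocount of 1, or without the 10 most abundant genes, the log2 ratio of Psmg2 was 0.95 and so under that threshold. The Psmg genes had the highest class median (0.80, beside 0.39 over all measured genes), and they are low genes, from about 89.4 fragments for Psmg4 in wild-type cells. The 4 levels lay within 1.31-fold of each other in knockout cells, against 2.25-fold in wild-type cells. Levels of all measured genes were also less spread in knockout cells. Pomp, the maturation factor of the core particle, stood at 187 against 249 TPM.

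**Figure D3:**
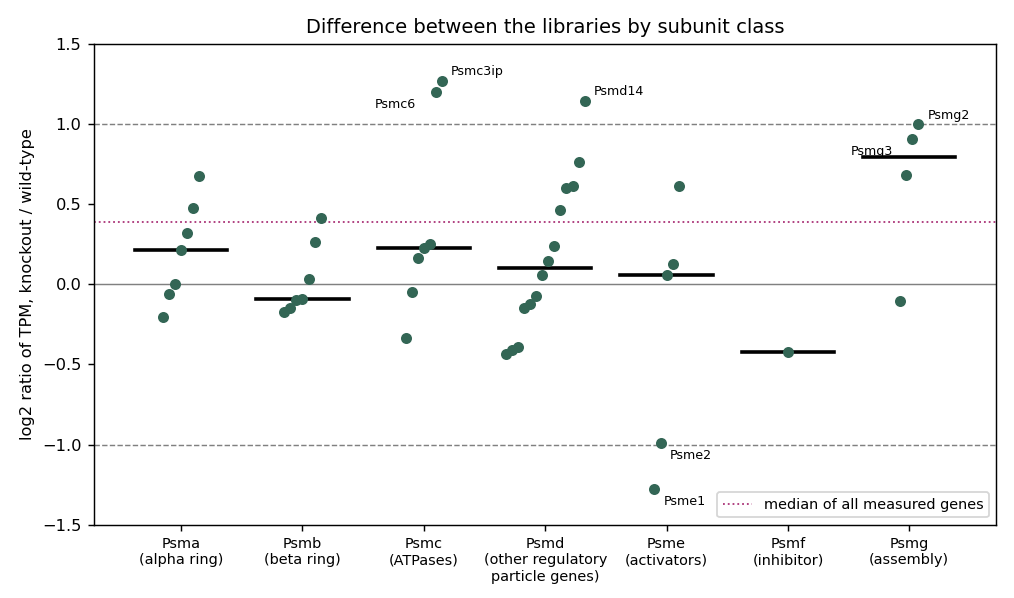
Log2 ratio of TPM, knockout over wild-type, for the 45 measured members by class, each point being 1 gene and each black bar the class median, with dashed lines at 2-fold and a dotted line at the median of all measured genes (0.39). The medians run from -0.42 for the single Psmf gene to 0.80 for the Psmg genes, and Psme1 is the 1 point below the lower dashed line.

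From TPM as given, the class medians were 0.22 for Psma, -0.09 for Psmb, 0.23 for Psmc, 0.10 for Psmd and 0.06 for Psme. They depend on scaling, since the median of all measured genes lies at 0.39. Relative to that median gene, 31 of 45 measured members were below it and 14 above it, and the median of the members was -0.27. None of the members (0) was then at least 2-fold higher, where 13.5% of all measured genes were. Psme1 and Psme2 then both passed 2-fold downward, where 10.2% were. Psmc6 and Psmd14 had log2 ratios of 0.81 and 0.76 on that scale.

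Among the 31 subunits of the core and regulatory particle, the ratio moved with the GC content of the transcript. Across these genes, which share the 2 libraries and are not independent replicates, Spearman's rho of the log2 ratio with GC content was -0.69. It was -0.29 across 12425 measured genes with a transcript model and -0.35 across genes of at least 50 TPM. Psmc6 had the lowest GC content of all members, 37.0%, and Psmd14 had 43.2%, while Psmd3, which had the lowest ratio of the 31, had the highest, 58.3%. Of the 17 subunits below the GC content of the median measured gene (50.8%) 12 were higher in knockout cells, and of the 14 others 4 were. Over all measured genes of any GC content 70.2% were higher. Their median log2 ratio was 0.95 in the lowest GC decile and 0.18 in the highest. Psme1 (52.8%) and Psme2 (51.6%) lay well below the other members of similar GC content, and Psmg3 (55.8%) and Psmg4 (55.2%) above them. Relative to the median measured gene of the same GC decile, Psmc6 stood at 0.25, Psmd14 at 0.44, Psme1 at -1.44 and Psme2 at -1.20, an alternative chosen after the data were seen. The part of base composition in the subunit differences was not tested further.

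**Figure D4:**
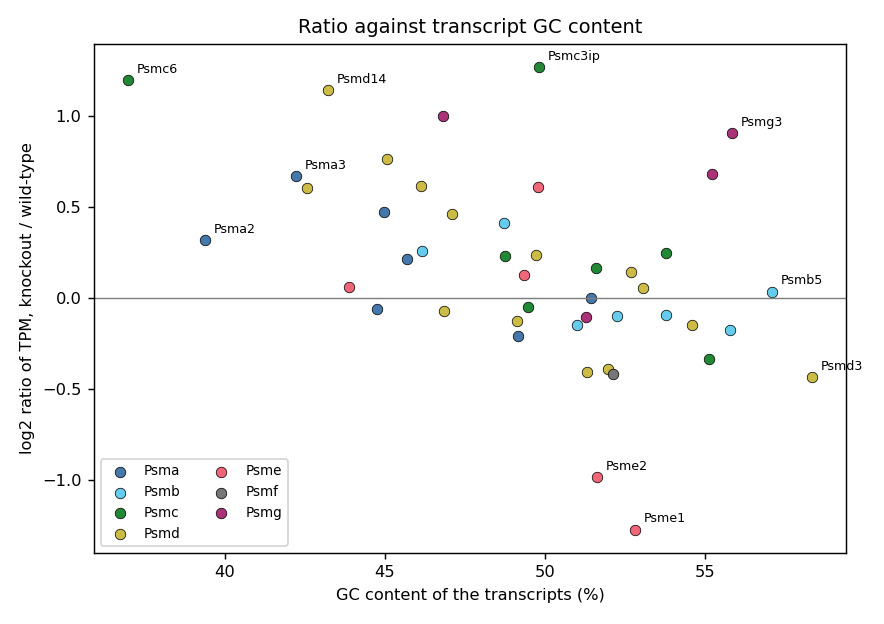
Log2 ratio of TPM, knockout over wild-type, against the mean GC content of the protein-coding transcripts (%) for the 45 measured members, coloured by class, each point being 1 gene. Subunits with low GC content, such as Psmc6 (37.0%), have higher ratios, and Psme1 and Psme2 lie apart at the bottom.

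Of 16 factors associated with the proteasome, 15 were within 2-fold, where 71.7% of all measured genes were, and 14 were higher, where 70.2% were. The threshold was passed upward by 1, against 23.1% of genes, and downward by none (0), against 5.25%, with a median log2 ratio of 0.41, close to that of all measured genes. Zfand2a, a stress-induced partner of the regulatory particle, had the highest ratio at 10.3 against 30.5 TPM. The deubiquitinase gene Usp14 stood at 30.9 against 52.5 TPM and Uchl5, another deubiquitinase of the regulatory particle, at 17.1 against 32.2 TPM. Adrm1, the ubiquitin receptor that anchors Uchl5, had the lowest ratio at 188 against 129 TPM.

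Genes that control proteasome transcription differed in both directions. Nfe2l1, the factor that raises proteasome genes when the protease is inhibited, stood at 108 against 98.5 TPM, and Ddi2, the protease that activates it, at 32.4 against 30.8 TPM. Nfe2l2 was higher, at 125 against 212 TPM. Of the 9 genes of this list, 1 was at least 2-fold higher (23.1% of all measured genes), the NF-Y subunit gene Nfyb at 10.6 against 21.7 TPM, and 1 at least 2-fold lower (5.25%), Stat3 at 109 against 44.9 TPM. Of 11 genes for ubiquitin, its activation and p97, the ATPase that pulls ubiquitinated proteins out of complexes, 9 were within 2-fold, beside 71.7% of all measured genes. The ubiquitin-activating enzyme gene Uba1 had the lowest ratio at 389 against 232 TPM, and Uba6, a second such enzyme, had the highest at 2.97 against 8.77 TPM.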

How the data were processed

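RNA-seq of 2 libraries was analysed. The authors deposited 1 table with FPKM and TPM values per gene, per the file headers, rounded to 2 decimals. Bowtie2, RSEM, DESeq2 and mm10 are named in the submitters' processing notes, without versions or roles. RSEM-type models divide reads among similar genes. Of 18068 lines 1 had no values. No value column was left out (0). The difference was log2((knockout TPM + 0.1)/(wild-type TPM + 0.1)), which understates that of low genes, and folds are plain TPM ratios. Depth was found by scanning for the depth at which low values of short single-transcript genes are whole fragments within 0.15. This was true of 61.0% of 210 and 60.7% of 234 genes, where chance gives 30% at any fixed depth. The best fit over depths and length offsets was kept, so 30% is not its chance level. The offset taken from transcript length was 50 bases in wild-type and 0 in knockout, so the depths are rough. Without recorded depths no interval is given. GC content came from GENCODE M21, positions and promoters from RefSeq. Python 3.11.15 and pandas 2.3.3 were used, tested on simulated data. Members and lists were chosen with earlier results of these data known. Named genes were the extremes and most abundant gene of each class, all members past 2-fold or under 1 TPM, catalytic, activator and assembly genes, and list extremes; other subunits are examples, and 1 gene that the rule takes is not reported here.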

Additional observations from a re-analysis of the deposited data

How the results depend on the processing

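The 5 members with a difference of at least 2-fold kept their sign in all 35 of their values under alternatives (0 reversals). Of the 322 values over all members, 43 turned sign, from 19 members with smaller differences: 12 relative to the median gene, 12 with trimmed mean scaling, 15 relative to the GC decile (Psma3 from 0.67 to -0.28, Psma4 from 0.48 to -0.23), 3 from FPKM and 1 without the 10 most abundant genes. Moving by at least 1.5-fold, or crossing the 2-fold threshold, happened in 24 of the 322. Relative to the median gene, 2 members were at least 2-fold lower and 0 higher. The medians were then -0.27 over all members, -0.18 for Psma, -0.16 for Psmc, -0.29 for Psmd and -0.33 for Psme. Before this shift they were 0.13, 0.22, 0.23, 0.10 and 0.06 in the same order. Trimmed mean scaling gave the same counts (2 and 0) and medians of -0.27, -0.18, -0.16, -0.29 and -0.33 in that order. Relative to the median gene of the same GC decile, the counts were again 2 and 0 and the medians -0.28, -0.34, -0.047, -0.19 and -0.64. These sign changes follow from the shift subtracted. Without the 10 most abundant genes 2 members were lower. At a 1.5-fold threshold 2 were lower and 11 higher, beside 1344 lower and 5079 higher of the 12666 measured genes. With a floor of 50 TPM 2 were higher, and the medians were -0.0082 for Psmd and -0.99 for Psme, since fewer genes entered. Without Psme2b the Psme median was -0.46. The floor of 50 TPM and the GC alternative were chosen after the data were seen. The ratio of summed levels, 0.969, was 1.01 from FPKM and 0.934 to 0.969 otherwise. Pseudocounts, no floor and a floor of 5 TPM moved no count by over 1.5 times and turned no median. No paired analysis was possible because each group has 1 library. For the same reason leaving out a library was not possible. Low members such as Psmb11 and Psmc3ip rest on few fragments.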
